A study of Homo sapiens with 12 samples.

Results

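The 10 genes described here encode dual-specificity phosphatases (DUSPs) that act on MAP kinases: DUSP1, DUSP2, DUSP4, DUSP5, DUSP6, DUSP7, DUSP8, DUSP10, DUSP14 and DUSP16. They are 10 of the 18417 genes tested on Affymetrix HuGene 1.0 ST arrays, which read RNA along whole transcripts. For each gene the probe set was chosen by its highest mean signal over the 12 arrays, among probe sets annotated to that symbol alone. Each of the 10 genes had 1 such probe set, so the choice by signal had no effect on them, and their levels are given as a description. RNA came from SZ95 sebocytes, an immortalised human line of the sebaceous gland, grown in Sebomed medium. The 4 groups held 3 arrays each: scramble siRNA untreated, scramble siRNA with UVPAPC, OLR1 siRNA untreated and OLR1 siRNA with UVPAPC. Every group was transfected with lipofectamine. UVPAPC, the phospholipid PAPC oxidised with ultraviolet light, was given at 25 µg/ml, 24 h after transfection. OLR1 encodes LOX-1, a scavenger receptor for oxidised lipoproteins. The labels name no vehicle, no unoxidised PAPC and no untransfected cells, so effects of oxidation, of the lipid and of its vehicle cannot be told apart. Neither the sequences of the siRNAs nor how long cells stayed in UVPAPC is stated in the labels.

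MAP kinases are switched on when a MAP kinase kinase phosphorylates a threonine and a tyrosine in their activation loop, and DUSPs remove both phosphates. Many DUSP genes are themselves induced by the kinases that their products switch off, which makes them feedback brakes of the pathway. The proteins differ in place and in substrate: DUSP1, DUSP2, DUSP4 and DUSP5 are nuclear and inducible, DUSP6 and DUSP7 are cytoplasmic and prefer ERK, DUSP8, DUSP10 and DUSP16 prefer the stress kinases JNK and p38, and DUSP14 is a small atypical DUSP without the kinase-binding domain. ERK drives proliferation and differentiation in skin epithelium, whereas JNK and p38 respond to stress.

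The promoters of 3 genes are shown, chosen by their change with UVPAPC in scramble cells. DUSP1 and DUSP8 were the members that rose, and DUSP10 was the member that fell the most. Each line is the 250 bases before the annotated start, 5′ to 3′ on the gene's strand, from RefSeq on GRCh38.p14, with capitals marking the motif matches described next. The DUSP1 window lies at chr5:172771196-172771445, the DUSP8 window at chr11:1572272-1572521 and the DUSP10 window at chr1:221742090-221742339, all on the minus strand.
DUSP1: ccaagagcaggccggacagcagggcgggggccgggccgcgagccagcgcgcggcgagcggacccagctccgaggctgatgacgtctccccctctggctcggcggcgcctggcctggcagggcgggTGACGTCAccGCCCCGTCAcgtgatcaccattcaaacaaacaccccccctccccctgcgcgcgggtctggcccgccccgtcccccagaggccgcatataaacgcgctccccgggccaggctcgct
DUSP8: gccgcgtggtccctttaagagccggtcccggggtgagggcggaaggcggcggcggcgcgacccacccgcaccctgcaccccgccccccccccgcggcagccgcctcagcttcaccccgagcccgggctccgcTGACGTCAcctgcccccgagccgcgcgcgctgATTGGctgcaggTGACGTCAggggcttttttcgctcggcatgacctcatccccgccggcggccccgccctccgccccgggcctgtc
DUSP10: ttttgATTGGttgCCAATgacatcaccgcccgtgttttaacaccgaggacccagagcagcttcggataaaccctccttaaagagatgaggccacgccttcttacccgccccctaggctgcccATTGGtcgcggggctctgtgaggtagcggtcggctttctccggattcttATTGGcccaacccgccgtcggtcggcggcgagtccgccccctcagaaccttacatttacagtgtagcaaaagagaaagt

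Of the 10 genes, 8 had at least 1 window in the promoter table and DUSP10 had 2, which gave 9 windows. DUSP4 and DUSP5 had no window. Both strands were searched. The cyclic AMP response element (CRE) TGACGTCA was found in 2 members, DUSP1 (125 to 118 bases before the start) and DUSP8 (118 to 111 and 74 to 67 bases before it). It occurs in 1.65% of the 35116 windows of the table. The core of the antioxidant response element, TGACNNNGC, was found in DUSP1 only (115 to 107 bases before the start, next to its CRE without overlapping it), and in 10.9% of all windows. The CCAAT box was found in 3 members, with 4 copies in the first DUSP10 window (245 to 241, 237 to 233, 128 to 124 and 79 to 75 bases before the start), 1 in DUSP6 (46 to 42) and 1 in DUSP8 (86 to 82), and in 32% of all windows. The AP-1 site TGANTCA was in 0 of the 9 windows and in 6.57% of all windows. The heat shock element and the NF-kB site were also in 0 of the 9 windows, and in 0.441% and 0.527% of all windows. A match is a description of these letters and not a binding site, and its part in the responses to UVPAPC was not tested.

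Array medians ranged from 5.73 to 5.83 log2 units. The siRNA target OLR1 fell 2.28-fold without UVPAPC (log2 fold change -1.19, limma adjusted p = 0.000484) and 2.64-fold with UVPAPC (-1.40, adjusted p = 0.000162). Its mean signal in scramble cells was 5.70 (SD 0.44) untreated and 5.81 (SD 0.36) with UVPAPC, at percentiles of 39.2 and 40.6 among genes. With OLR1 siRNA it was 4.51 and 4.40, at percentiles of 21.8 and 20.5, so the fall was read at low signal. Of 12 measured sebocyte and epithelial markers, 11 lay above the median gene, against 0 of 4 leukocyte, 1 of 4 endothelial (CDH5), 1 of 5 fibroblast (COL1A1) and 0 of 3 melanocyte markers. In deviations from the group means, the first component held 26.1% of the variance. The array highest on it was replicate 2 in the scramble untreated and OLR1 UVPAPC groups. In the scramble UVPAPC and OLR1 untreated groups it was replicate 3. Some array must be highest in each group, so this pick by rank does not mark outliers. These 4 scored from 6.04 to 11.27, while OLR1 siRNA UVPAPC replicate 1 scored -9.16. Results that these 4 arrays change are given with and without them. The labels do not say whether replicates came from separate cultures, and p-values then reflect no more than the scatter among these arrays, which could be technical. With 3 arrays a group, their number limits how precise each value is. An array reads the RNA of a whole culture, so fewer cells in a state and less RNA per cell cannot be told apart.

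UVPAPC raised DUSP1 and lowered DUSP4 and DUSP10 under both siRNAs. With scramble siRNA, DUSP1 rose 1.93-fold and DUSP8 rose 1.26-fold, while DUSP10 fell 2.27-fold, DUSP6 fell 1.46-fold and DUSP4 fell 1.36-fold. That made 2 of 10 members that rose and 3 that fell at a limma adjusted p under 0.05, where 2.67% of all tested genes rose, 4.64% fell and 7.31% changed in either direction. The 3 arrays with and the 3 without UVPAPC did not overlap for 6 members, DUSP7 being the sixth, against 24.1% of all genes. The median log2 fold change was 0.01 over the 10 members and 0.00 over all genes. With OLR1 siRNA, DUSP1 rose 2.14-fold and DUSP10 and DUSP4 fell 1.96-fold and 1.41-fold. That was 1 member up and 2 down, where 3.46% of all genes rose, 3.25% fell and 6.71% changed in either direction. Here 5 members did not overlap between the treatments, against 23.7% of all genes, and the median of the members was -0.07, against -0.01 over all genes. Sebocyte markers moved with UVPAPC too: PLIN2, a lipid droplet protein, rose under both siRNAs (log2 fold change 0.58 and 0.67) and PPARG, a regulator of lipid synthesis, fell (-0.47 and -0.35). With UVPAPC, CDH1, E-cadherin, fell under scramble siRNA (-0.24), MUC1, a mucin, fell under OLR1 siRNA (-0.34), and the other 9 and 9 of the 12 markers did not pass. The mean of the 12 marker signals ranged from 9.86 to 9.92 without and from 9.80 to 9.85 with UVPAPC under scramble siRNA, and from 9.77 to 9.83 in both treatments under OLR1 siRNA. The part of that change in the DUSP responses was not tested.

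OLR1 siRNA moved every DUSP member that passed the test downward. In untreated cells DUSP10 fell 1.92-fold, DUSP7 1.74-fold, DUSP6 1.48-fold, DUSP1 1.35-fold and DUSP16 1.23-fold, and 0 members rose. Over all genes 5.29% rose, 4.42% fell and 9.71% changed. The 2 siRNA groups did not overlap for 8 members, against 28.7% of all genes. Of these, DUSP8 and DUSP14 were higher with OLR1 siRNA and the others lower. In UVPAPC-treated cells DUSP7 fell 1.73-fold, DUSP10 1.65-fold and DUSP16 1.31-fold, so 3 members fell and 0 rose, where 7.94% of all genes rose, 4.56% fell and 12.5% changed. Here 5 members did not overlap, DUSP14 being higher with OLR1 siRNA and the others lower, against 30.8% of all genes. The median log2 fold change of the members was -0.25 in untreated and -0.26 in UVPAPC-treated cells, against 0.00 and -0.01 over all genes. With each array centred on its median, the members split 0 up and 4 down untreated and 0 up and 3 down with UVPAPC, whereas over all genes 1184 rose and 579 fell untreated, in place of 975 and 814, and 2005 rose and 505 fell with UVPAPC, in place of 1462 and 840. Of the 4 endothelial markers, CDH5 rose with OLR1 siRNA in both treatments (0.65 and 0.50), while PECAM1, VWF and KDR, at percentiles of 14.9 to 22.9 among genes, did not pass. The mean signal of the 4 markers was 5.22 to 5.29 (scramble) and 5.32 to 5.34 (OLR1 siRNA) untreated, and 5.15 to 5.23 and 5.25 to 5.28 with UVPAPC, and its part in the DUSP differences was not tested.

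**Figure D1:**
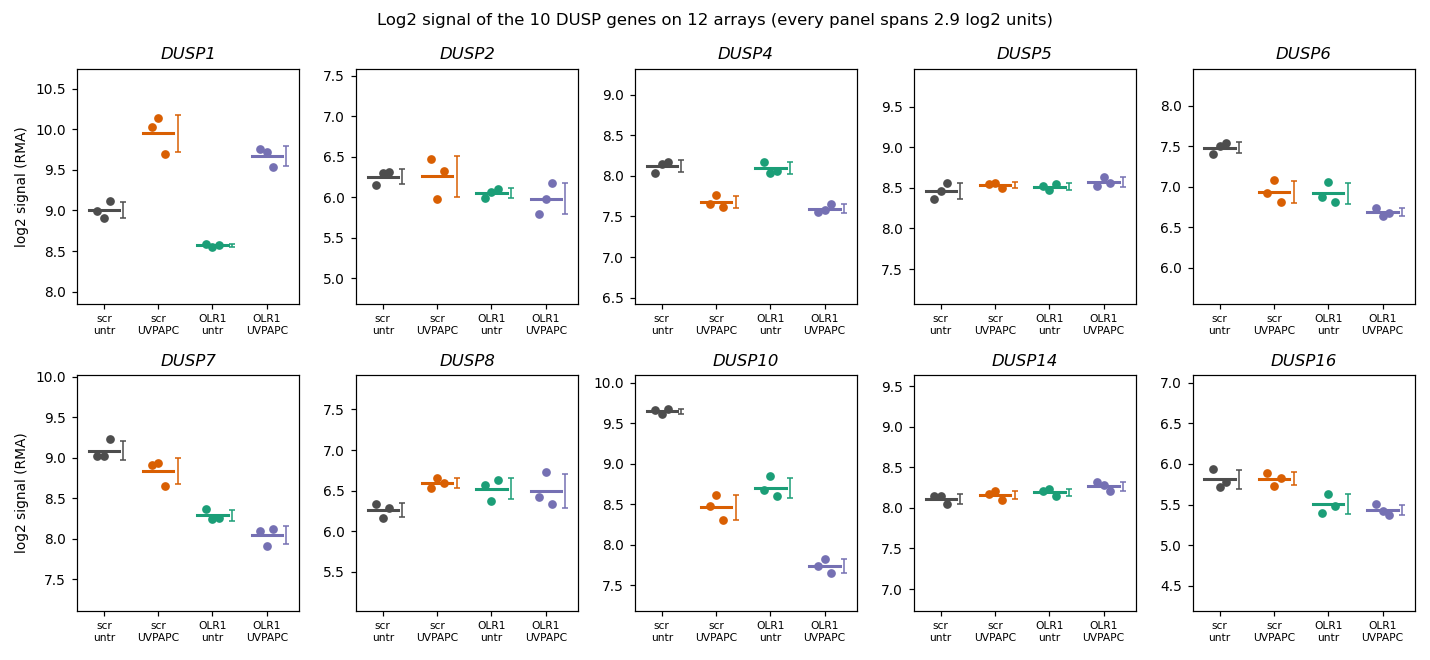
Log2 RMA signal (vertical axis) of each DUSP gene in the 4 groups (horizontal axis; scr, scramble siRNA; untr, untreated). Points are the 3 arrays, thick lines the group mean and the bars beside them 1 SD; every panel spans the same number of log2 units. DUSP7 steps down across the groups from 9.09 to 8.04, DUSP10 is highest in scramble untreated cells (9.65) and lowest with OLR1 siRNA and UVPAPC (7.74), DUSP1 is higher with UVPAPC under both siRNAs, and DUSP5 and DUSP14 stay nearly level.

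Among the nuclear inducible phosphatases, DUSP1 rose with UVPAPC under both siRNAs. DUSP1, also called MKP-1, is an immediate early gene whose product acts on p38, JNK and ERK. Its log2 signal with scramble siRNA was 8.99, 8.91 and 9.12 untreated and 10.03, 10.13 and 9.70 with UVPAPC. With OLR1 siRNA it was 8.58, 8.55 and 8.58 untreated and 9.75, 9.72 and 9.53 with UVPAPC. Every UVPAPC array therefore lay above every untreated array, whichever the siRNA. The log2 fold change was 0.95 (SE 0.10, 95% CI 0.74 to 1.16, limma adjusted p = 1.81e-05) with scramble siRNA and 1.10 (SE 0.10, 95% CI 0.89 to 1.31, adjusted p = 3.46e-06) with OLR1 siRNA. The OLR1 siRNA lowered the untreated level: its 3 untreated arrays lay below the 3 scramble ones, with a log2 fold change of -0.44 (SE 0.10, 95% CI -0.65 to -0.22, limma adjusted p = 0.0101). That call was lost without replicate 3 of the scramble untreated group (-0.38, adjusted p = 0.0572). With UVPAPC the siRNA groups overlapped, and the log2 fold change of -0.28 (95% CI -0.49 to -0.07) did not pass (limma adjusted p = 0.0742). Without replicate 3 of the scramble UVPAPC group, the lowest DUSP1 array there, it was -0.41 (limma adjusted p = 0.00996). That array is 1 of the 4 highest on the first component, and without those 4 arrays together the limma adjusted p was 0.0231.

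DUSP4, or MKP-2, a nuclear phosphatase of ERK and JNK, moved the other way from DUSP1. Its signal with scramble siRNA was 8.04, 8.15 and 8.18 untreated and 7.66, 7.77 and 7.62 with UVPAPC. With OLR1 siRNA it was 8.18, 8.04 and 8.07 untreated and 7.55, 7.58 and 7.66 with UVPAPC. The 6 UVPAPC arrays lay below the 6 untreated arrays, and the siRNA groups overlapped within each treatment. UVPAPC gave a log2 fold change of -0.44 (SE 0.07, 95% CI -0.59 to -0.29, limma adjusted p = 0.000813) with scramble siRNA and of -0.50 (SE 0.07, 95% CI -0.65 to -0.35, adjusted p = 0.000277) with OLR1 siRNA. For OLR1 against scramble siRNA it was -0.03 untreated (95% CI -0.18 to 0.12, limma adjusted p = 0.864) and -0.09 with UVPAPC (95% CI -0.24 to 0.06, adjusted p = 0.457).

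DUSP2 and DUSP5 did not pass in any comparison. DUSP2, or PAC-1, was first described in activated lymphocytes and acts on ERK and p38. Its signal with scramble siRNA was 6.15, 6.30 and 6.31 untreated and 6.47, 5.98 and 6.33 with UVPAPC, and with OLR1 siRNA it was 5.99, 6.07 and 6.10 untreated and 5.80, 5.98 and 6.18 with UVPAPC. The treatments overlapped under both siRNAs, while in untreated cells the OLR1 siRNA arrays all lay below the scramble ones (-0.20, 95% CI -0.44 to 0.04, limma adjusted p = 0.321). With UVPAPC the difference between siRNAs was -0.27 (95% CI -0.51 to -0.04, limma adjusted p = 0.123), and -0.41 without replicate 2 of the scramble UVPAPC group (adjusted p = 0.0196). DUSP5, a nuclear phosphatase specific to ERK, lay between 8.36 and 8.64 on all 12 arrays. Its log2 fold changes were from 0.04 to 0.08 in the 4 comparisons, with 95% intervals between -0.11 and 0.22 and limma adjusted p from 0.614 to 0.775. RefSeq annotates a pseudogene copy of DUSP5 (DUSP5P1) and copies of DUSP8 (among them DUSP8P5), and their part in the probe signal was not tested.

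The cytoplasmic ERK phosphatases DUSP6 and DUSP7 were lower with the OLR1 siRNA. DUSP6, or MKP-3, is a feedback inhibitor whose transcription follows ERK activity. Its signal with scramble siRNA was 7.41, 7.50 and 7.54 untreated and 6.93, 7.08 and 6.81 with UVPAPC. With OLR1 siRNA it was 6.88, 7.06 and 6.82 untreated and 6.74, 6.64 and 6.68 with UVPAPC. The untreated scramble arrays were the highest, the scramble UVPAPC and OLR1 siRNA untreated arrays interleaved, and the OLR1 siRNA UVPAPC arrays were the lowest. In scramble cells UVPAPC gave -0.54 (SE 0.08, 95% CI -0.72 to -0.37, limma adjusted p = 0.000528), and in untreated cells OLR1 siRNA gave -0.56 (SE 0.08, 95% CI -0.74 to -0.39, adjusted p = 0.000353). Both of these comparisons use the scramble untreated arrays. The remaining steps did not pass although their groups did not overlap. UVPAPC under OLR1 siRNA gave -0.23 (95% CI -0.41 to -0.06, limma adjusted p = 0.116). OLR1 siRNA under UVPAPC gave -0.25 (95% CI -0.43 to -0.08, limma adjusted p = 0.0559), which became -0.32 (adjusted p = 0.0378) without replicate 3 of the scramble UVPAPC group and passed at an adjusted p of 0.044 without replicate 2 of the OLR1 siRNA untreated group.

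DUSP7, a close relative of DUSP6 with the same preference for ERK, separated into 4 bands. With scramble siRNA it read 9.02, 9.02 and 9.23 untreated and 8.91, 8.94 and 8.65 with UVPAPC. With OLR1 siRNA it read 8.37, 8.25 and 8.26 untreated and 8.10, 7.92 and 8.12 with UVPAPC. No array of a group overlapped those of the next group in that order. The step between siRNAs passed in both treatments, with a log2 fold change of -0.80 untreated (SE 0.09, 95% CI -0.99 to -0.61, limma adjusted p = 3.14e-05) and -0.79 with UVPAPC (SE 0.09, 95% CI -0.98 to -0.60, adjusted p = 5e-05). The step with UVPAPC was -0.26 with scramble siRNA (95% CI -0.45 to -0.07, limma adjusted p = 0.109) and -0.25 with OLR1 siRNA (95% CI -0.44 to -0.06, adjusted p = 0.129), and neither passed. In scramble cells it was -0.16 without scramble UVPAPC replicate 3 (limma adjusted p = 0.382), and it passed with eBayes trend (0.048) and among genes above the median signal alone (0.0447).

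Among the phosphatases of JNK and p38, DUSP10 fell in all 4 single comparisons. DUSP10, or MKP-5, prefers p38 and JNK over ERK. With scramble siRNA its signal was 9.66, 9.61 and 9.67 untreated and 8.48, 8.61 and 8.30 with UVPAPC. With OLR1 siRNA it was 8.67, 8.84 and 8.61 untreated and 7.74, 7.82 and 7.65 with UVPAPC. The untreated scramble arrays stood above all others and the OLR1 siRNA UVPAPC arrays below all others, whereas the groups between them met at 8.61. UVPAPC gave a log2 fold change of -1.18 with scramble siRNA (SE 0.09, 95% CI -1.36 to -1.0, limma adjusted p = 3.4e-07) and -0.97 with OLR1 siRNA (SE 0.09, 95% CI -1.15 to -0.79, adjusted p = 2.58e-06). OLR1 siRNA gave -0.94 untreated (SE 0.09, 95% CI -1.12 to -0.76, limma adjusted p = 4.33e-06) and -0.73 with UVPAPC (SE 0.09, 95% CI -0.91 to -0.54, adjusted p = 7.15e-05). These 4 calls held in each of the 24 alternative settings, with values from -1.26 to -1.10, from -1.06 to -0.90, from -1.01 to -0.89 and from -0.85 to -0.65. Not every setting could move these values, since some leave out an array that is not in the comparison.

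DUSP8, which prefers JNK and p38, gave a small rise with UVPAPC in scramble cells that depended on single arrays. Its signal with scramble siRNA was 6.34, 6.17 and 6.28 untreated and 6.54, 6.66 and 6.60 with UVPAPC, and with OLR1 siRNA it was 6.57, 6.38 and 6.63 untreated and 6.42, 6.73 and 6.33 with UVPAPC. The scramble untreated arrays lay below the scramble UVPAPC and the OLR1 siRNA untreated arrays, and the treatments overlapped under OLR1 siRNA. The rise in scramble cells was 0.33 (SE 0.10, 95% CI 0.13 to 0.54, limma adjusted p = 0.0481). It did not pass when any of the 6 arrays of that comparison was left out: the limma adjusted p was 0.0731, 0.162 and 0.108 without scramble untreated replicates 1, 2 and 3, and 0.0768, 0.137 and 0.119 without scramble UVPAPC replicates 1, 2 and 3. It also did not pass without replicate 1 of the OLR1 siRNA untreated group (0.0611) or of the OLR1 siRNA UVPAPC group (0.0509). Nor did it pass without the 4 arrays highest on the first component (limma adjusted p = 0.119). With arrays centred on their medians, renormalised by quantiles or by cyclic loess, the adjusted p was 0.0609, 0.0582 and 0.0565, so that 1 member rose and 3 fell in scramble cells, and with the replicate number as a block or all table entries it was 0.0726 or 0.122. Under OLR1 siRNA the change with UVPAPC was -0.03 (95% CI -0.24 to 0.17, limma adjusted p = 0.91). For OLR1 against scramble siRNA the untreated difference of 0.26 (95% CI 0.06 to 0.47) did not pass (limma adjusted p = 0.108). It passed without replicate 2 of the OLR1 siRNA UVPAPC group (adjusted p = 0.0473) and among genes above the median signal alone (0.0465). With UVPAPC it was -0.11 (95% CI -0.31 to 0.10, adjusted p = 0.522).

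DUSP16, or MKP-7, is a JNK and p38 phosphatase that shuttles between nucleus and cytoplasm, and it was lower with the OLR1 siRNA. It read 5.94, 5.72 and 5.77 untreated and 5.89, 5.73 and 5.83 with UVPAPC under scramble siRNA, and 5.40, 5.64 and 5.48 untreated and 5.50, 5.42 and 5.37 with UVPAPC under OLR1 siRNA. The 6 OLR1 siRNA arrays lay below the 6 scramble arrays, and the treatments overlapped under each siRNA. OLR1 siRNA gave -0.30 untreated (SE 0.08, 95% CI -0.47 to -0.13, limma adjusted p = 0.0248) and -0.39 with UVPAPC (SE 0.08, 95% CI -0.56 to -0.22, adjusted p = 0.00553). The untreated call was lost without replicate 1 or 3 of the OLR1 siRNA untreated group (limma adjusted p = 0.116 and 0.0671) and without replicate 1 or 3 of the scramble untreated group (0.105 and 0.054). It was also lost with centred arrays (0.0608), all table entries (0.0575), quantile normalization (0.06) and cyclic loess (0.0572), so that it did not pass in 9 of 23 alternatives. Without the 4 arrays highest on the first component, neither call passed (limma adjusted p = 0.0875 untreated and 0.0593 with UVPAPC). UVPAPC gave 0.01 with scramble siRNA (95% CI -0.16 to 0.18, limma adjusted p = 0.969) and -0.07 with OLR1 siRNA (95% CI -0.24 to 0.10, adjusted p = 0.705).

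The atypical member DUSP14, also called MKP-6, did not pass in any comparison. Its signal lay between 8.04 and 8.32 on all 12 arrays, with group means of 8.11, 8.16, 8.20 and 8.27 in the order of scramble untreated, scramble UVPAPC, OLR1 siRNA untreated and OLR1 siRNA UVPAPC. The OLR1 siRNA arrays all lay above the scramble arrays of the same treatment, by 0.08 untreated (95% CI -0.05 to 0.22, limma adjusted p = 0.483) and 0.11 with UVPAPC (95% CI -0.03 to 0.24, adjusted p = 0.297).

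**Figure D2:**
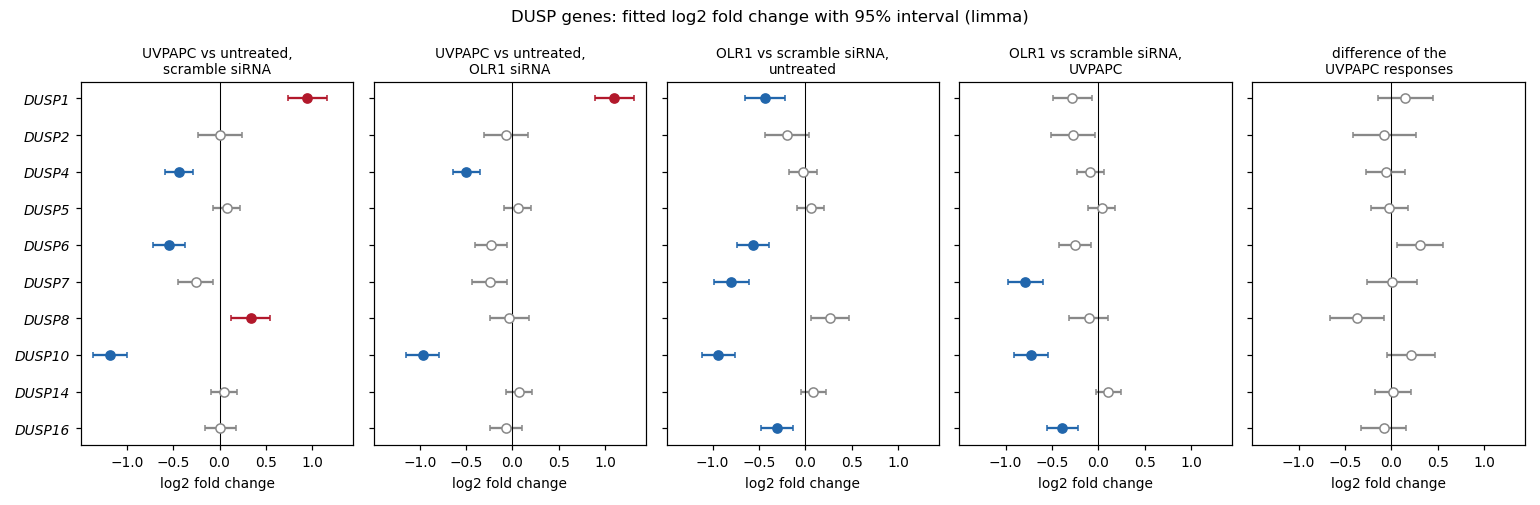
Fitted log2 fold change (horizontal axis) of the 10 DUSP genes in each comparison, with its 95% interval; the last panel is the UVPAPC response under OLR1 siRNA minus that under scramble siRNA. Red and blue filled points rose or fell at a limma adjusted p under 0.05, and open points did not pass. DUSP10 is furthest left in the first 3 panels and DUSP7 in the fourth, DUSP1 is furthest right in the UVPAPC panels, and no member passed in the last.

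The question of whether the OLR1 siRNA changed the response to UVPAPC was tested as the difference of the responses, OLR1 minus scramble siRNA. No member passed, and 0 of 18417 genes did (0%; 0% higher and 0% lower), while 1004 genes and 2 of 10 members had an unadjusted limma p under 0.05. The lowest adjusted p was 0.52 over all genes and 0.904 over the members. These were DUSP6, with a difference of 0.31 (SE 0.12, 95% CI 0.06 to 0.56), and DUSP8, with -0.37 (SE 0.14, 95% CI -0.66 to -0.08), both at a limma adjusted p of 0.904. For DUSP10 the difference was 0.21 (SE 0.12, 95% CI -0.04 to 0.47) and for DUSP1 it was 0.15 (SE 0.14, 95% CI -0.15 to 0.45), with limma adjusted p of 0.904 and 0.931. With each array left out in turn these values ranged from 0.13 to 0.29 for DUSP10 and from 0.02 to 0.24 for DUSP1. These intervals do not show that the responses were alike.

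Cells with both the OLR1 siRNA and UVPAPC are described against untreated scramble cells, without a test. DUSP10 was 3.75-fold lower there (log2 difference -1.91) and the sum of its 2 single differences was -2.12. DUSP7 was 2.06-fold lower (-1.05, sum -1.05), DUSP4 was 1.44-fold lower (-0.53, sum -0.47) and DUSP16 was lower by a log2 difference of -0.38 (sum -0.29). DUSP6 was 1.74-fold lower, with a log2 difference of -0.80 against a sum of -1.11. DUSP1 was the member with the largest positive value, 1.58-fold higher (0.66, sum 0.51). The sums use the untreated scramble arrays in both terms, and the difference of the responses above is the test of how far sum and combined value part.

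Among kinases of the pathway and other phosphatases of MAP kinases, at most 1 gene a list passed in any comparison. With UVPAPC 7.31% (scramble siRNA) and 6.71% (OLR1 siRNA) of all genes passed. With OLR1 siRNA 9.71% (untreated) and 12.5% (UVPAPC) of all genes passed. Counts this small do not set these lists apart from all genes. Of 8 measured MAP kinases, 0 passed in either UVPAPC comparison, and 1, MAPK8 (JNK1), rose with OLR1 siRNA in both treatments (0.47 untreated and 0.52 with UVPAPC). Of 6 MAP kinase kinases, MAP2K6 fell with UVPAPC in scramble cells (-0.34) and MAP2K4 rose with OLR1 siRNA in UVPAPC-treated cells (0.33), and the other counts were 0. Of 8 other phosphatases of MAP kinases, PPP2CB, a catalytic subunit of PP2A, rose with UVPAPC in scramble cells (0.29), PTPRR, a tyrosine phosphatase of ERK and p38, rose with OLR1 siRNA (0.37 untreated and 0.48 with UVPAPC), and 0 fell. The calls of MAPK8 and, with UVPAPC, of PTPRR held with each array left out. The others did not: the call was lost with 3 of the 12 arrays for MAP2K6 (highest limma adjusted p = 0.0571), 4 for MAP2K4 (0.165), 2 for PPP2CB (0.0762) and 5 for PTPRR untreated (0.125). All of these arrays were among the 6 of their own comparison. Leaving out any other array alters the pooled spread and not the fold change. These 4 calls were also lost without the 4 arrays highest on the first component (limma adjusted p = 0.06, 0.168, 0.0631 and 0.224).

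Of 17 measured dual-specificity phosphatases outside the 10 genes, at most 2 passed in any comparison. All-gene shares were 7.31% and 6.71% for UVPAPC under scramble and OLR1 siRNA. For OLR1 siRNA they were 9.71% untreated and 12.5% with UVPAPC. Counts this small do not set the 17 genes apart from all genes. In scramble cells with UVPAPC 1 rose (DUSP13B, 0.28) and 1 fell (DUSP18, -0.43), and in OLR1 siRNA cells 0 rose and 1 fell (DUSP18, -0.38). With OLR1 siRNA DUSP11, an RNA phosphatase, rose (0.26 untreated and 0.25 with UVPAPC), and DUSP13B fell with UVPAPC (-0.48). The medians of the 17 genes were -0.02, -0.03, -0.01 and 0.01 in the 4 comparisons. Only the fall of DUSP13B held with each array left out. The other calls were lost with 9 of 12 arrays for DUSP13B (highest limma adjusted p = 0.194), 4 and 7 for DUSP18 (0.0969 and 0.151) and 6 and 4 for DUSP11 (0.115 and 0.169). For DUSP11 untreated these were all 6 arrays of the comparison. For DUSP18 under OLR1 siRNA they were all 6 arrays of its comparison and another array. Without the 4 arrays highest on the first component, several of these calls were lost. They were the rise of DUSP13B (limma adjusted p = 0.223), the fall of DUSP18 with UVPAPC under OLR1 siRNA (0.0512) and both rises of DUSP11 (0.0715 and 0.123).

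Of 14 other genes of ERK feedback and output, UVPAPC lowered 5 in scramble cells and 4 in OLR1 siRNA cells and raised 0. Over all genes 7.31% and 6.71% changed in these comparisons, and 9.71% and 12.5% with OLR1 siRNA untreated and with UVPAPC. PHLDA1, an ERK-induced regulator of cell survival (-0.54 and -0.68), CCND1, cyclin D1 (-0.60 and -0.47), IER3, an immediate early survival gene (-0.39 and -0.40), and FOSL1, a subunit of AP-1 (-0.31 and -0.34), fell under both siRNAs. SPRY2, an inhibitor of receptor tyrosine kinase signalling, fell with scramble siRNA (-0.45). The median of the 14 genes was -0.18 and -0.07. With OLR1 siRNA 4 fell and 1 rose in untreated cells, and 5 fell and 2 rose with UVPAPC, with medians of -0.18 and -0.17. PHLDA1 (-0.66 and -0.80), IER3 (-0.33 and -0.35) and SPRY4, another Sprouty inhibitor (-0.35 and -0.35), fell in both treatments, and CCND1 fell untreated (-0.33). The ETS factor gene ETV5 rose in both (0.41 and 0.32), SPRY2 rose with UVPAPC (0.36), and SPRED3 (-0.29) and ETV4 (-0.25) fell there. Each array left out in turn kept the UVPAPC calls and, for OLR1 siRNA, those of PHLDA1, CCND1, IER3 and SPRY2. SPRY4 was lost with 2 of 12 arrays in each treatment (highest limma adjusted p = 0.0861 and 0.0529), ETV5 with 1 untreated, scramble untreated replicate 2 (0.0503), and with 5 under UVPAPC (0.156), SPRED3 with 3 (0.0687) and ETV4 with 10 (0.177). Without the 4 arrays highest on the first component, FOSL1 did not pass with UVPAPC under either siRNA (limma adjusted p = 0.06 and 0.0624). ETV5 then did not pass untreated (0.0894), and 3 of the 14 passed in the last comparison in place of 7.

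Of 19 measured immediate early genes other than DUSP1, UVPAPC lowered 5 and raised 1 in scramble cells and lowered 6 and raised 2 in OLR1 siRNA cells. The shares of all genes that changed were 7.31% and 6.71% here, and 9.71% and 12.5% with OLR1 siRNA untreated and with UVPAPC. The zinc finger factors KLF6 (-0.87 and -0.74), KLF4 (-0.43 and -0.56), EGR1 (-0.61 and -0.56) and EGR3 (-0.39 and -0.39) and the AP-1 subunit JUNB (-0.75 and -0.64) fell under both siRNAs. JUN, another AP-1 subunit, rose with UVPAPC under OLR1 siRNA (0.53), and its change under scramble siRNA (0.12) did not pass. No gene passed in the difference of the responses. IER5 rose with UVPAPC under both siRNAs (0.35 and 0.33) and IER2 fell with UVPAPC under OLR1 siRNA (-0.38). Medians were -0.09 and -0.04. With OLR1 siRNA 3 fell untreated (KLF6 -0.45, EGR3 -0.32 and JUN -0.26), 2 fell with UVPAPC (KLF6 -0.32 and EGR3 -0.32) and 0 rose, with medians of -0.14 and -0.05. IER5 was lost with 2 of 12 arrays left out in turn under each siRNA (highest limma adjusted p = 0.0687 and 0.0863), JUN untreated with 4 (0.112), and EGR3 with 3 untreated (0.101) and 2 under UVPAPC (0.0887); the other calls of this list held. Without the 4 arrays highest on the first component, EGR3 did not pass with UVPAPC in scramble cells (limma adjusted p = 0.0932). With UVPAPC under OLR1 siRNA, 3 of the list then rose and 6 fell, in place of 2 and 6. For OLR1 against scramble siRNA 1 of the 19 then passed in each treatment, and the gene lost with UVPAPC was KLF6 (0.0998). FOSL1, SPRED3, ETV4, IER2 and IER5 were named after their values were seen.

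**Figure D3:**
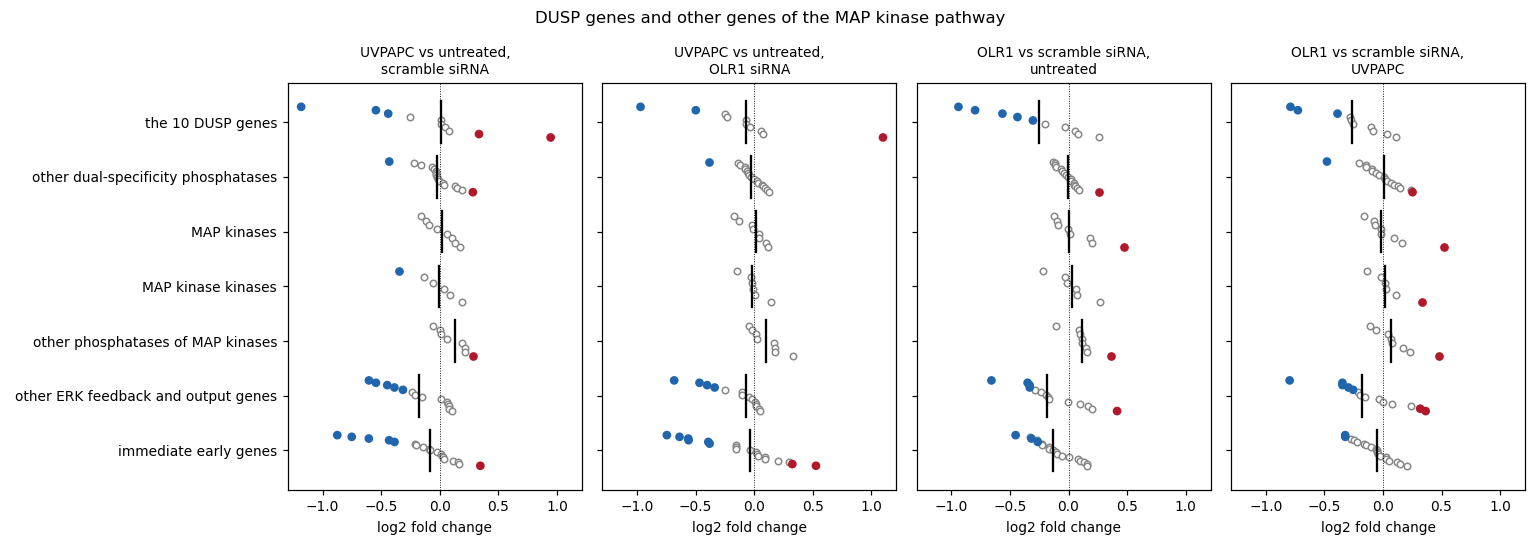
Log2 fold change (horizontal axis) of every measured gene of the DUSP members and of 6 other lists of the MAP kinase pathway in the 4 single comparisons. Each point is a gene, red and blue where it rose or fell at a limma adjusted p under 0.05 and open where it did not pass, and the black line is the median of the list. The DUSP members span from -1.18 to 0.95 in the first panel, while the MAP kinases lie close to 0 in both UVPAPC panels.

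The genes whose pattern over the 12 arrays lay nearest to DUSP1 and DUSP10 were found by the root mean square difference after each gene was centred on its own mean. For DUSP1 these were ADM, the vasodilator peptide adrenomedullin (0.11 log2 units), CYP4F11, a cytochrome P450 that hydroxylates fatty acids (0.13), and HIBCH, an enzyme of valine breakdown (0.16). ADM had group means of 8.21, 8.91, 7.64 and 8.77 in the order scramble untreated, scramble UVPAPC, OLR1 siRNA untreated and OLR1 siRNA UVPAPC. For DUSP10 they were GATA3, a transcription factor of epithelial differentiation (0.22), TNFRSF11B, the decoy receptor osteoprotegerin (0.23), and UGCG, which makes glucosylceramide (0.24). GATA3 had group means of 8.97, 8.04, 8.39 and 7.55 in the same order, TNFRSF11B of 8.89, 7.80, 7.83 and 7.18, and UGCG of 9.25, 8.35, 8.34 and 7.86. The likeness is a description over 12 arrays of 4 groups.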

How the data were processed

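Per the submitters' processing notes, the authors used Affymetrix Expression Console 1.3.1.187 and its RMA method to make the deposited values, which are log2 signals of probe sets. RMA compresses large fold changes. Its settings are not stated there. Of 33297 entries, 19460 carried 1 gene symbol, 1754 several and 12083 none, and the highest-mean probe set of each symbol left 18417 genes. A model with 4 group means was fitted over the 12 arrays by limma 3.58.1 (R 4.3.3, default eBayes, two-sided, 8 residual and 7.66 prior degrees of freedom), with Benjamini-Hochberg adjustment over all genes and a threshold of 0.05. The fit was tested on simulated data. The 10 genes, the gene lists and the rule for named genes (every member, OLR1, at most 6 passing genes a list by absolute log2 fold change, and the 3 genes nearest to DUSP1 and to DUSP10, without small RNA, uncharacterised, antisense or readthrough genes) were chosen with earlier results of these data known. Alternatives were trend or robust eBayes, array weights, genes above the median signal, the mean of probe sets, all entries, arrays centred on medians, quantile or cyclic loess normalization, the 6 arrays of a comparison, leaving out each array, and a block for the replicate number. Leaving out 4 arrays together was chosen after seeing the data. Promoters came from RefSeq. Plots used matplotlib 3.10.9 (Python 3.11.15).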

Additional observations from a re-analysis of the deposited data

How the results depend on the processing

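The calls of DUSP1, DUSP4, DUSP6 and DUSP10 with UVPAPC in scramble cells, of DUSP1, DUSP4 and DUSP10 with UVPAPC in OLR1 siRNA cells, of DUSP6, DUSP7 and DUSP10 with OLR1 siRNA untreated and of DUSP7 and DUSP10 with OLR1 siRNA under UVPAPC held in all 24 alternatives. Some of these could not move a member's fold change. Each member had 1 probe set to average, and leaving out an array outside a comparison alters only the pooled spread. The number of members past the threshold for OLR1 siRNA under UVPAPC, 3, became 5 with eBayes trend and with array weights, since DUSP1 and DUSP6 then passed. With 1 array left out that number ranged from 4 to 5 (UVPAPC, scramble siRNA), stayed at 3 (UVPAPC, OLR1 siRNA), ranged from 3 to 6 (OLR1 siRNA, untreated) and from 3 to 5 (OLR1 siRNA, UVPAPC), and stayed at 0 for the difference of responses. For OLR1 siRNA under UVPAPC DUSP1 also passed with quantile normalization (limma adjusted p = 0.0194), cyclic loess (0.0198) and among genes above the median signal alone (0.0315), where DUSP6 passed too (0.0214). DUSP6 passed with UVPAPC under OLR1 siRNA among genes above the median signal alone (0.0489). The cause of these changes was not tested.

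The labels do not say whether replicate numbers pair the samples. Deviations of same-numbered arrays correlated from -0.22 to 0.26, and 6 of 18 pairs exceeded 0.1. These correlations cannot decide whether same-numbered arrays shared a culture. With the replicate number as a block, 4, 3, 5, 3 and 0 members passed in the 5 comparisons, in place of 5, 3, 5, 3 and 0.

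The number of all genes past the threshold moved by over 1.5 times without single arrays: from 1347 to 868 for UVPAPC in scramble cells without scramble untreated replicate 1, from 1789 to 1113, 1158 and 1101 for OLR1 siRNA untreated without scramble untreated replicate 2, scramble untreated replicate 3 and OLR1 siRNA untreated replicate 2, and from 2302 to 1372 and 1267 for OLR1 siRNA under UVPAPC without scramble UVPAPC replicate 3 and OLR1 siRNA UVPAPC replicate 1. Without the 4 arrays highest on the first component these numbers were 752, 1091 and 1161.

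Members near 0 changed sign without passing. With UVPAPC in scramble cells DUSP2 became -0.0193 with centred arrays, -0.003 with quantile normalization, -0.0118 with cyclic loess and -0.0034 without 4 arrays, and DUSP16 became -0.0167, -0.0107, -0.0187 and -0.0419. With OLR1 siRNA untreated DUSP4 became 0.0084 with centred arrays and 3e-04 without 4 arrays. With OLR1 siRNA under UVPAPC DUSP5 became -0.0324 (quantile), -0.0305 (loess) and -0.0166 (without 4 arrays). For the difference of responses DUSP14 became -0.0034, -0.0126, -0.0147 and -0.0536 and DUSP7 became -0.0476, -0.0261, -0.0347 and -0.0042 with array weights, quantile, loess and without 4 arrays. With 1 array left out the values ranged from -0.0983 to 0.1461 for DUSP2 and from -0.0353 to 0.0737 for DUSP16 (UVPAPC, scramble siRNA), from -0.1649 to 0.0277 for DUSP2 and from -0.1516 to 0.048 for DUSP8 (UVPAPC, OLR1 siRNA), and, for the difference of responses, from -0.2133 to 0.0311 for DUSP2, from -0.0678 to 0.0315 for DUSP5, from -0.0841 to 0.0722 for DUSP7 and from -0.0063 to 0.0559 for DUSP14. DUSP2 and DUSP16 lie under the median signal and have no value with the filter on low values. Of 160 group levels under other scalings, 158 moved by less than 1 SD.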
